A study of Mus musculus with 16 samples.

Results

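The comparison described here sets 4 libraries of cells from mice with stroke, labelled MCAO, against 4 libraries from Sham mice. These are 8 of the 16 libraries of the study, chosen by their titles, and every gene of the table enters the comparison. In MCAO the middle cerebral artery was blocked to model an ischemic stroke, and Sham stands for the surgery control, whose libraries the labels call untreated. All mice were of the strain C57BL/6, and the other 8 libraries came from MCAO mice that also received plasma exosomes, whose donors were Apoe KO mice on a western or a normal diet. The cortex, called infarct cortex in the protocol, was digested, stained with CD45-APC and CD11b-PE and sorted, and the sorted cells were labelled microglia. The age of the mice, the time between surgery and sorting, the gate between low and high CD45 and whether each library is a separate mouse are not given in the sources used here, so p-values measure the spread between these libraries, which may be technical.

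CD45 marks all leukocytes and CD11b, an integrin chain, marks myeloid cells. Both are carried by microglia, the resident macrophages of the brain, and by monocytes, macrophages and neutrophils that enter the brain from blood after an ischemic stroke. Entering monocytes can turn into macrophages that clear dead cells and remodel tissue, while microglia near the lesion lose part of their resting expression program. The genes described below were mainly chosen to lie outside the best known genes: receptors, lipid mediators, transporters, metabolic enzymes, matrix and clotting genes, and intracellular signalling and regulatory genes. Some of the best known, such as Olfml3, S100a9, Ifitm3 and Cxcl10, still enter through a gene list or their spread.

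Markers of microglia, the cell type of the label, were high in the Sham libraries and far lower in the MCAO libraries. Values are in FPKM, fragments per kilobase of transcript, scaled to the fragments of the library, as read from the deposited table. Summed over 16 microglia markers, levels were 143105 to 166068 FPKM in Sham and 3094 to 5136 FPKM in MCAO, and all 16 fell. Over 16 monocyte markers the sums were 240 to 642 FPKM in Sham and 11490 to 15370 FPKM in MCAO, and all 16 rose. Sums over 12 border macrophage markers rose from 21.2 to 99.2 FPKM to 2021 to 4619 FPKM, with 10 markers called higher and 0 lower. Over 11 neutrophil markers they rose from 76.8 to 144 FPKM to 1732 to 9987 FPKM, with 8 called higher and 0 lower, while Ly6g, a defining neutrophil marker, was at 0 in all 8 libraries and Retnlg was at 0 in Sham. Dendritic cell markers summed to 123 to 151 FPKM in Sham and 65.8 to 216 FPKM in MCAO, with 4 of 10 tested called higher and 2 lower. Among the tested markers, 10 of monocytes, 7 of border macrophages, 6 of neutrophils and 3 of dendritic cells were below 1 FPKM in every Sham library. Such markers were tested because of their level in other libraries and could hardly be called lower, so these counts describe the lists and support nothing. Over all tested genes, 24.5% were called higher and 14.8% lower. Marker sums of T and NK cells, of mast cells and basophils, of neurons and of endothelial and mural cells stayed below 10 FPKM in each of the 8 libraries, and those of B cells, of the oligodendrocyte lineage and of erythroid cells below 100 FPKM. Several of these sums rest on few markers: 3 of 14 for T and NK cells, 1 of 8 for mast cells and basophils, 5 of 10 for neurons, 6 of 11 for endothelial and mural cells, 4 of 9 for B cells, 9 of 11 for the oligodendrocyte lineage and 5 of 6 for erythroid cells were in the table used, and the others were not analysed here. The libraries are therefore called CD45 and CD11b sorted cells here. In such bulk samples fewer cells of a type and less RNA per cell cannot be told apart, and the part of the other cell types in each result below was not tested.

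Depth is unknown because the files hold no counts. The 8 libraries summed to 758283 to 840856 FPKM, with 8813 to 10003 genes at 1 FPKM or more. The 20 most abundant genes took 32.7 to 35.8% of the total in Sham libraries and 19.3 to 20.7% in MCAO libraries. On the log2(FPKM + 1) scale, libraries correlated across the tested genes at 0.868 to 0.915 within Sham, at 0.898 to 0.922 within MCAO and at 0.659 to 0.715 between the groups; genes are not independent replicates. Sham replicate 1 was the lowest Sham library by several of these measures. It correlated at 0.868 to 0.891 with the other Sham libraries, which correlated at 0.9 to 0.915 among themselves. Its correlations with MCAO libraries were 0.659 to 0.668, and it had the fewest genes at 1 FPKM or more, 8813.

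Of 10846 tested genes, those with at least 1 FPKM in at least 4 of the 16 libraries, 4254 (39.2%) passed an adjusted p of 0.05: 2654 (24.5%) were higher and 1600 (14.8%) lower in MCAO. For 3669 genes (33.8%) no MCAO value fell within the range of the Sham values or the reverse: 2365 (21.8%) were higher in every MCAO library and 1304 (12%) in every Sham library. Among tested genes, 761 were below 1 FPKM in all Sham libraries only and 272 in all MCAO libraries only, and such genes met the expression filter through libraries other than those: 518 of the 761 were called higher and 196 of the 272 lower, so counts over the tested members of a list describe it and support nothing. Fold changes are differences of means on the log2(FPKM + 1) scale, MCAO minus Sham, which understates the change of low genes, and are given ± SE. The median over all tested genes was 0.25. Quantile normalization brought it to 0.00 and the calls to 2149 higher and 2142 lower, and scaling by median ratios brought it to 0.06 and the calls to 2187 and 1994, so the excess of rises over falls depends on the scaling.

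**Figure D1:**
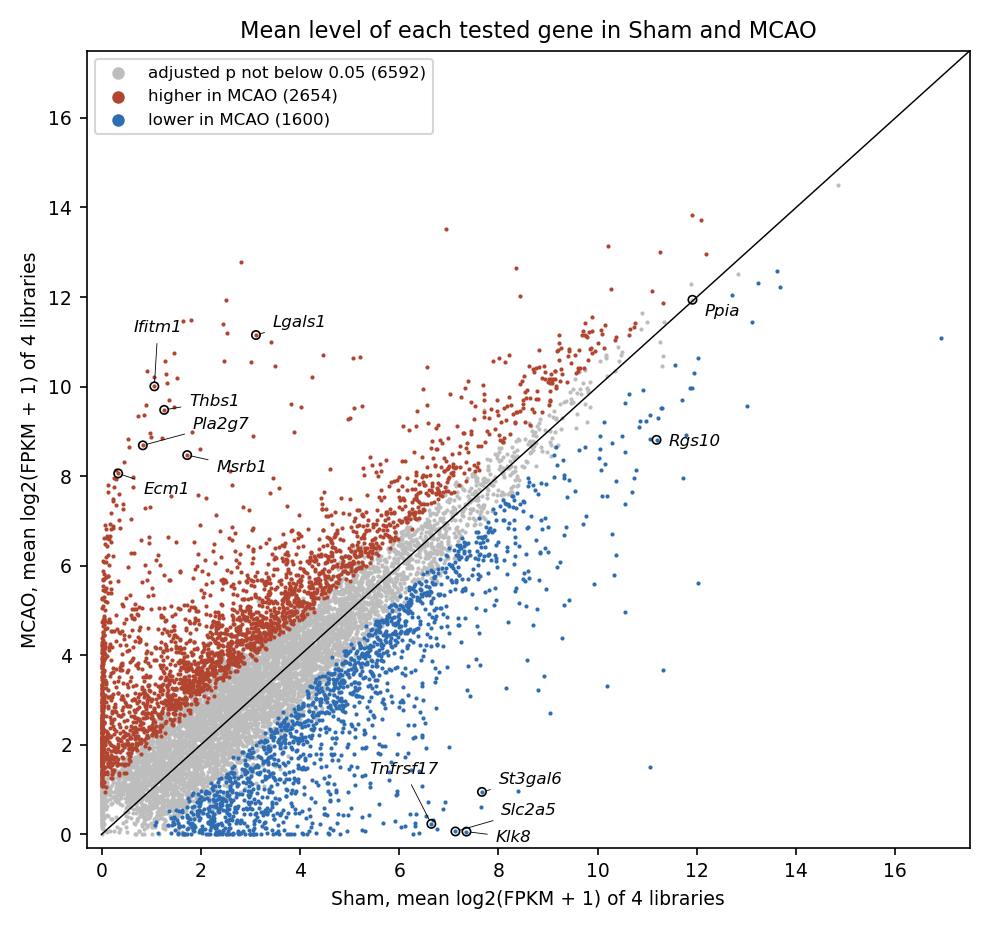
Mean level of each of 10846 tested genes in 4 Sham libraries (x axis) and 4 MCAO libraries (y axis), both as log2(FPKM + 1), with the 2654 genes higher in MCAO in red, the 1600 lower in blue and the rest in grey; the line marks equal levels. Ecm1, Pla2g7 and Thbs1 lie along the left edge and Klk8 and Slc2a5 along the bottom, while Ppia lies on the line.

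A set of 62 genes was below 1 FPKM in every Sham library and at 20 FPKM or more in every MCAO library. Ecm1, which encodes a secreted matrix glycoprotein, was at 0.24, 0.1, 0.23 and 0.51 FPKM in the Sham libraries and at 266, 256, 335 and 220.1 FPKM in the MCAO libraries, each time in the order of replicates 1 to 4. Anxa1, which encodes a phospholipid-binding protein that restrains leukocyte recruitment, was at 0.05, 0.14, 0.08 and 0.51 FPKM in Sham and 116, 205, 308 and 298 FPKM in MCAO. The fold changes of these genes were 7.73 ± 0.25 (adjusted p = 6.85e-15) and 7.52 ± 0.29 (adjusted p = 6.78e-14). Their near absence from Sham and the gap between the groups were fixed by the rule of the set. Emp1, the gene of an epithelial membrane protein, was at 0.11, 0.05, 0.08 and 0.16 FPKM in Sham and at 221, 209, 234 and 219 FPKM in MCAO, where the libraries were close to each other. Clec4d, a C-type lectin receptor gene, Sirpb1c, of an activating signal regulatory protein, Ms4a4a, of a membrane-spanning protein, Mgst1, of microsomal glutathione transferase, and AA467197, of a small mitochondrial protein, were the other most abundant of the set once the best known genes were left out, with MCAO means of 248 ± 42.6, 259 ± 87.7, 232 ± 107, 190.3 ± 91.5 and 299 ± 105 FPKM (SD, n = 4). Mgst1 and Ms4a4a were both highest in MCAO replicate 3.

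The promoters of Ecm1 and Anxa1 are shown because these genes moved from near 0 to over 100 FPKM, and those of Ptgs1 and Ptgs2, described further on, because these 2 cyclooxygenase genes moved in opposite directions. Each line holds the 250 bases before the annotated start, 5′ to 3′ on the gene's strand, from RefSeq on the build GRCm38.p6, which is not the build the labels name. Capitals mark every match, on either strand, to a TATA box (TATAAA) or to the core bound by the myeloid factor PU.1 (GAGGAAGT); the 2 motifs share no letters in these matches.
Ecm1 (chr3:95739570-95739819, minus strand): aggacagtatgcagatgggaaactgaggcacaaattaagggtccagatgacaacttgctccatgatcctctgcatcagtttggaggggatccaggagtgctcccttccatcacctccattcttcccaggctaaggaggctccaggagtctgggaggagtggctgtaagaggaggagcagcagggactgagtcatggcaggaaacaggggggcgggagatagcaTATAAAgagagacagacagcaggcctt
Anxa1 (chr19:20390672-20390921, minus strand): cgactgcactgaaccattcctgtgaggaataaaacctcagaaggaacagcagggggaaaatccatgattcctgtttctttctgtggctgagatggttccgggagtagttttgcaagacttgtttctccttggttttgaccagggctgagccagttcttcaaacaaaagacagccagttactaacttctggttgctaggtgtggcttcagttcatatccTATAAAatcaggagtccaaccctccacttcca
Ptgs1 (chr2:36230176-36230425, plus strand): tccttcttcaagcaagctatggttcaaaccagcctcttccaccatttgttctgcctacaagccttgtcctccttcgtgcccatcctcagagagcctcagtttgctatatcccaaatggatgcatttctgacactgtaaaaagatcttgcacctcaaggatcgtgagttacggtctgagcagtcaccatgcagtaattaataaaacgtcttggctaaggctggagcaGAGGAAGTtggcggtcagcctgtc
Ptgs2 (chr1:150099781-150100030, plus strand): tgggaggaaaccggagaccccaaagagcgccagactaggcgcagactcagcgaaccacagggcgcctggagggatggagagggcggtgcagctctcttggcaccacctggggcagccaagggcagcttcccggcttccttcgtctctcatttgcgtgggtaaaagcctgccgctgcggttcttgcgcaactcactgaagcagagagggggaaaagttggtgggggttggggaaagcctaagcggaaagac
The TATA box letters lie 27 to 22 bases before the start of Ecm1 and 32 to 27 before that of Anxa1, and the PU.1 core 24 to 17 bases before that of Ptgs1. In 27025 RefSeq promoters of the same length, 13% hold the TATA box letters and 2.44% the PU.1 core. These matches describe the letters in the windows and are not evidence of binding, and the 4 promoters were chosen after the values were seen.

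In the other direction, 18 genes were below 1 FPKM in every MCAO library and at 20 FPKM or more in every Sham library. Klk8, the gene of a secreted kallikrein-related protease, was at 146, 192, 101 and 248 FPKM in Sham and 0.1, 0, 0.08 and 0 FPKM in MCAO (-7.29 ± 0.45, adjusted p = 1.01e-10). Slc2a5, which encodes the fructose transporter GLUT5 and is also on the microglia marker list, was at 72.6, 202, 102 and 253 FPKM and 0.11, 0.05, 0 and 0.03 FPKM. For these genes too, the gap between the groups was fixed by the rule of the set. Tnfrsf17, of a receptor for survival ligands of the TNF superfamily, was at 141, 140.3, 116 and 41.9 FPKM in Sham, where replicate 4 was lowest, and at 0.78, 0, 0.08 and 0 FPKM in MCAO. Agmo, of the enzyme that cleaves ether lipids, Hspb3, of a small heat shock protein, and Upk1b, of a uroplakin, had Sham means of 86.7 ± 47.3, 84.5 ± 33.4 and 92.3 ± 46 FPKM (SD, n = 4) and stayed below 1 FPKM in each MCAO library. The predicted genes 2610528A11Rik and Gm3636 behaved alike, with Sham means of 78.8 ± 23.3 and 118 ± 63.6 FPKM.

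Among genes of higher mean level whose groups did not overlap, the largest rises included antigen presentation, interferon-induced, matrix and acute phase genes. H2-Eb1, of an MHC class II beta chain, was at 4.01, 1.06, 0.56 and 1.66 FPKM in Sham and 733, 1379, 584 and 829 FPKM in MCAO (8.36 ± 0.34, adjusted p = 1.3e-13). Ifitm1, of an interferon-induced membrane protein, was at 0.78, 0.68, 1.03 and 2.15 FPKM and 547, 1680.0, 751 and 1613 FPKM, with MCAO replicates 2 and 4 above replicates 1 and 3; Ifitm2 also rose, and near-identical members of this family can share reads, so the split between them is uncertain. Lgals1, of galectin-1, Thbs1, of the matrix protein thrombospondin-1, and Fxyd5, of a regulator of the sodium pump, rose by 8.04 ± 0.39, 8.22 ± 0.24 and 8.07 ± 0.41. Saa3, of an acute phase apolipoprotein, reached 239, 242, 955 and 747 FPKM, and Cxcl2, of a neutrophil-attracting chemokine, reached 421, 363, 479 and 649 FPKM, from at most 3.89 FPKM in Sham for either. Saa3 was higher in MCAO replicates 3 and 4, where the neutrophil marker sum was also higher. Lilr4b, of a leukocyte immunoglobulin-like receptor, rose by 8.62 ± 0.31 and Anxa2, of an annexin, by 7.98 ± 0.25. The largest falls of this kind included St3gal6, of a sialyltransferase, at 258, 171, 233 and 163 FPKM in Sham and 0.47, 3.73, 0.98 and 0.01 FPKM in MCAO (-6.72 ± 0.52, adjusted p = 3.44e-09), Thrsp, of a lipogenesis factor (-6.13 ± 0.38), Tmem100, of a membrane protein (-5.88 ± 0.40), Sgce, of epsilon-sarcoglycan (-5.05 ± 0.56), and Capn3, of a calcium-dependent protease (-5.07 ± 0.65). BC035044, whose role is not stated here, fell by the same order (-5.84 ± 0.46). All of these were below 5 FPKM in at least 3 of 4 MCAO libraries, and Capn3 and Sgce kept their highest MCAO value in replicate 1.

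Gene lists were then read by counts and medians beside all tested genes. They were chosen with earlier results of these data known, so they describe these libraries. Over all 37 lists, 1501 memberships were fixed, 1284 were in the table and 1114 were tested. The counts below are over tested members. Over all tested genes, 24.5% were called higher and 14.8% lower, the shares beside which each count is to be read. The plot of list shares gives all 36 lists with tested members.

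**Figure D2:**
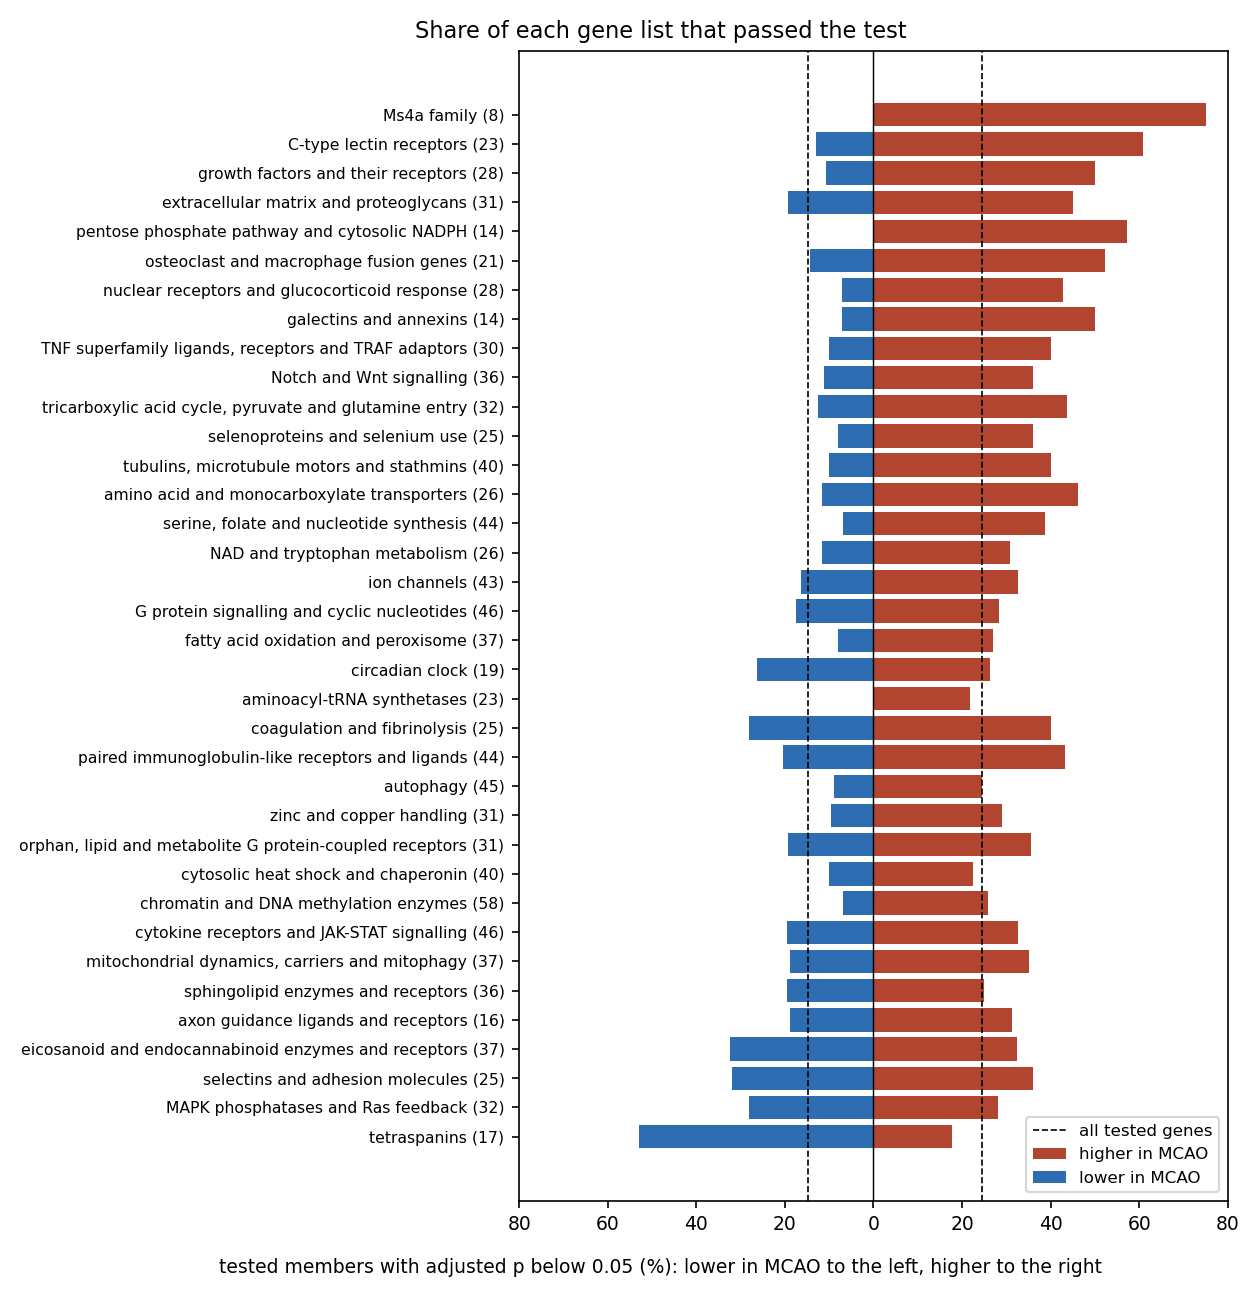
Share of the tested members of each of 36 gene lists, in percent, with adjusted p below 0.05 in MCAO against Sham, lower in MCAO to the left (blue) and higher to the right (red), with the same shares over all tested genes. Ms4a genes, C-type lectins and the list of pentose phosphate pathway and NADPH genes reach furthest to the right and tetraspanins furthest to the left.

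Surface receptors of myeloid cells came first. C-type lectin receptors bind sugars and damaged-cell products: of 39 fixed, 23 were tested, 14 rose, 3 fell and 6 did not pass (median 2.61, against 0.25 over all genes), and 11 of the 23 were below 1 FPKM in every Sham library. Clec4e, of Mincle, a receptor for products of dead cells and the partner of the Clec4d product, was at 0, 0.06, 0.08 and 0.16 FPKM in Sham and 48.3, 60.9, 14.2 and 37.9 FPKM in MCAO (5.09 ± 0.41, adjusted p = 5.75e-09). Clec4n, of Dectin-2, and Clec12a, of an inhibitory receptor for uric acid crystals, also rose (5.63 ± 0.46 and 4.71 ± 0.42). Clec5a, of a receptor that signals through DAP12, went the other way, at 61.6, 71.2, 75.8 and 65.2 FPKM in Sham and 9.1, 9.96, 10.6 and 14.1 FPKM in MCAO (-2.55 ± 0.30, adjusted p = 1.04e-06), with no overlap.

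Paired immunoglobulin-like receptors have activating and inhibitory members that can share ligands, and their list also holds ligands, adaptors and related receptors. Of its 44 tested genes, 19 rose, 9 fell and 16 did not pass, with a median of 0.47 and 12 members below 1 FPKM in all Sham libraries. Sirpb1b, Cd300lf and Cd300ld rose from 1.17 FPKM or less in every Sham library to MCAO means of 54.3 ± 12.8, 115 ± 17.7 and 27.8 ± 8.2 FPKM; reads of the Sirpb1 genes can be shared between near-identical copies. Lag3, of an inhibitory receptor for MHC class II, fell from 13.3, 57.7, 27.3 and 86.5 FPKM to 0, 3.79, 2.15 and 1.46 FPKM (-3.94 ± 0.58, adjusted p = 2.22e-05).

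All 8 listed Ms4a genes in the table were tested: 6 rose, 0 fell and 2 did not pass (median 3.32), and 4 were below 1 FPKM in all Sham libraries. Ms4a6c was the one of the named members already expressed in Sham, at 118, 129, 68.4 and 40.8 FPKM against 566, 656, 829 and 802 FPKM in MCAO (3.11 ± 0.30, adjusted p = 7.18e-08). Ms4a8a and Ms4a14 were near 0 in Sham and reached 13.7, 28.6, 42.6 and 34.6 FPKM and 13.6, 4.33, 18.6 and 10.7 FPKM in MCAO. Tetraspanins, which organise membrane domains, ran mostly the other way: of 17 tested, 3 rose, 9 fell and 5 did not pass (median -0.96). Cd9, a tetraspanin gene, was at 1352, 1733, 1314 and 1619 FPKM in Sham and 343, 198, 68.4 and 159 FPKM in MCAO (-3.17 ± 0.37, adjusted p = 1.36e-06), lowest in MCAO replicate 3. Cd53 and Tspan13 fell by smaller amounts (-1.61 ± 0.28 and -1.78 ± 0.26). Cd63, of the tetraspanin of late endosomes, rose from 422, 797, 552 and 679 FPKM to 2317, 1955, 2368 and 2497 FPKM (1.93 ± 0.21), and Tspan17 was listed at 0 in all Sham libraries and at 16.2, 7.24, 12.6 and 3 FPKM in MCAO.

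Galectins and annexins bind sugars and membrane lipids; of 14 tested, 7 rose, 1 fell and 6 did not pass (median 0.87). Anxa4 rose from 10.4, 7.76, 6.53 and 5.18 FPKM to 119.9, 128, 125 and 89.7 FPKM (3.81 ± 0.25), whereas Anxa3 fell from 344, 421, 434 and 425 FPKM to 139, 127, 124 and 162 FPKM (-1.55 ± 0.26, adjusted p = 9.99e-05). Anxa3 was named as the largest change against the list's main direction, and the groups did not overlap for Anxa3 or Anxa4.

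Secreted ligands and their receptors were next. Among 30 tested TNF superfamily genes, 12 rose, 3 fell and 15 did not pass (median 0.80), with 6 below 1 FPKM in all Sham libraries. Tnfsf13, of the ligand APRIL, rose from 0.47, 9.82, 10.4 and 8.33 FPKM to 77.6, 90.0, 99.1 and 58.4 FPKM (3.65 ± 0.46, adjusted p = 2.75e-06), while Tnfrsf17, described above and encoding a receptor for that ligand, fell. Cd40, of a costimulatory receptor, was at 24.8, 13.4, 28.3 and 3.78 FPKM in MCAO, lowest in replicate 4, and Tnfsf14, of the ligand LIGHT, at 3.12, 9.33, 9.94 and 8.11 FPKM, both near 0 in Sham.

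Of 28 tested growth factors and their receptors, 14 rose, 3 fell and 11 did not pass (median 1.46), and 9 were below 1 FPKM in all Sham libraries. Metrnl, of the secreted protein meteorin-like, was at 0, 0.37, 6.43 and 5.25 FPKM in Sham and 94, 86.6, 88.1 and 95.7 FPKM in MCAO (5.03 ± 0.54, adjusted p = 3.69e-07). Gdf15 and Gdf3, of TGF-beta family ligands, and Hgf, of hepatocyte growth factor, rose to means of 34.6 ± 6.12, 22.4 ± 7.86 and 12.1 ± 3.78 FPKM. Tgfa, of an EGF receptor ligand, fell from 21.6, 20.2, 26.6 and 36.1 FPKM to 4.53, 0.46, 0 and 0.69 FPKM (-3.78 ± 0.49), with its highest MCAO value in replicate 1.

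Cytokine receptors and JAK-STAT genes counted 15 up, 9 down and 22 not passed of 46 tested (median 0.26). These are 32.6% higher and 19.6% lower, against 24.5% and 14.8% over all tested genes. Il4ra, of the receptor chain for interleukins 4 and 13, rose from 4.67, 10.4, 8.76 and 10.04 FPKM to 66.9, 86.8, 109.8 and 78.1 FPKM (3.22 ± 0.35, adjusted p = 4.21e-07). Ifnar1, of a type I interferon receptor chain, Crlf2, of the TSLP receptor, and Il3ra, of an interleukin 3 receptor chain, rose by 2.28 ± 0.30, 3.47 ± 0.39 and 3.94 ± 0.58. Il15, of a cytokine that sustains NK cells, fell from 49.3, 97.6, 86.8 and 46.8 FPKM to 6.36, 11.3, 0.75 and 21.9 FPKM (-3.12 ± 0.62). Among 16 tested axon guidance genes, 5 rose, 3 fell and 8 did not pass (median -0.20). Sema4a and Plxnc1, of a semaphorin and a semaphorin receptor, rose (4.37 ± 0.39 and 3.28 ± 0.35), and Rgmb, of a BMP co-receptor, and Rtn4rl1, of a Nogo receptor homolog, fell (-3.33 ± 0.44 and -3.01 ± 0.43).

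Orphan, lipid and metabolite G protein-coupled receptors counted 11 up, 6 down and 14 not passed of 31 tested (median 0.29), with 8 below 1 FPKM in all Sham libraries. Gpr65, of a proton-sensing receptor, rose from 6.48, 6.37, 1.77 and 7.99 FPKM to 56.6, 58.2, 70.0 and 46.8 FPKM (3.26 ± 0.32, adjusted p = 1.03e-07). Adgre5, of the adhesion receptor CD97, and Gpr171 rose from near 0 (4.83 ± 0.29 and 4.28 ± 0.41). Gpr155, of a lysosomal cholesterol sensor, fell from 38.9, 34, 35.8 and 40.9 FPKM to 0.69, 0.12, 0.45 and 0.1 FPKM (-4.86 ± 0.39), with no overlap.

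Among 46 tested genes of G protein signalling, which carry the signals of such receptors, 13 rose, 8 fell and 25 did not pass (median 0.56), with 28.3% called higher against 24.5% over all tested genes. Rgs10, of a regulator that ends G protein signals, was at 2225, 2360.1, 2362 and 2377 FPKM in Sham and 437, 419, 427 and 516 FPKM in MCAO (-2.38 ± 0.20, adjusted p = 1.07e-08); both groups were tight. Rgs2, Rgs3 and Gng10, of 2 further regulators and a G protein gamma chain, fell (-2.02 ± 0.22, -3.74 ± 0.47 and -2.62 ± 0.26). Rgs18 was 1 of the 13 genes that rose, from 0.03 FPKM or less in Sham to 6.74, 12.2, 4.83 and 15.4 FPKM in MCAO. Most called genes of this list rose, although most of those named here fell.

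Eicosanoids are lipid mediators made from arachidonic acid by cyclooxygenases and lipoxygenases. Of 37 tested eicosanoid and endocannabinoid genes, 12 rose, 12 fell and 13 did not pass (median -0.23). Ptgs1, of cyclooxygenase 1, was at 170.1, 186, 212 and 221 FPKM in Sham and 13.6, 9.04, 11.8 and 17.6 FPKM in MCAO (-3.85 ± 0.33, adjusted p = 1.71e-08). Ptgs2, of the inducible cyclooxygenase 2, was at 0, 0, 0 and 0.01 FPKM in Sham and 13.9, 2.83, 8.69 and 10.6 FPKM in MCAO (3.16 ± 0.42, adjusted p = 6.92e-06). The groups did not overlap for either gene and the directions were opposite, with MCAO levels of the same order; their promoters are those printed above. Ptgs2 and Hpgds, Ltc4s, Alox5ap, Ptger2, Ptger3 and Ptger4 below were chosen after their values were seen.

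Genes of 2 synthases that act on cyclooxygenase and lipoxygenase products also fell. Hpgds, of hematopoietic prostaglandin D synthase, was at 388, 349, 327 and 301 FPKM in Sham and 29.2, 58.9, 25.2 and 33.8 FPKM in MCAO (-3.25 ± 0.29, adjusted p = 2.35e-08). Ltc4s, of leukotriene C4 synthase, was at 384, 844, 522 and 1291 FPKM and 74.8, 28.4, 15.7 and 54.6 FPKM (-4.17 ± 0.41, adjusted p = 1.03e-07). Both were lower in every MCAO library, although Sham values of Ltc4s spread widely. Lpcat2, of an enzyme that makes platelet-activating factor, was at 629.9, 637, 564 and 601 FPKM and 66.4, 60.3, 82.7 and 58.9 FPKM (-3.17 ± 0.20), and Pla2g7, of the plasma enzyme that degrades this factor, at 1.71, 0.35, 0.43 and 0.92 FPKM and 317, 464, 449.6 and 433 FPKM (7.86 ± 0.30, adjusted p = 4.9e-14). The gene for synthesis fell and that for breakdown rose, with no overlap, which 1 of the naming rules required for Pla2g7. Alox5ap, of the 5-lipoxygenase activating protein, rose from 608 ± 63.6 to 1117 ± 120.1 FPKM (SD, n = 4), a call lost with quantile normalization.

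Receptors for these lipids also differed by gene. Ltb4r1, of the leukotriene B4 receptor of neutrophils and monocytes, rose from 0, 1.2, 0.04 and 0.13 FPKM to 28.9, 16.3, 19.4 and 25.4 FPKM (4.18 ± 0.36, adjusted p = 1.71e-08). Of the prostaglandin E2 receptors, Ptger4 rose (3.97 ± 0.38), Ptger2 was listed at 0 in Sham and at 3.23, 4.87, 6.93 and 7.28 FPKM in MCAO, and Ptger3 was at 1.84, 2.15, 3.51 and 2.76 FPKM in Sham and listed at 0 in MCAO. Abhd6, of an enzyme that breaks down the endocannabinoid 2-AG, fell from 131, 63.8, 121 and 57.2 FPKM to 2.21, 1.42, 0.85 and 0.43 FPKM (-5.37 ± 0.48).

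**Figure D3:**
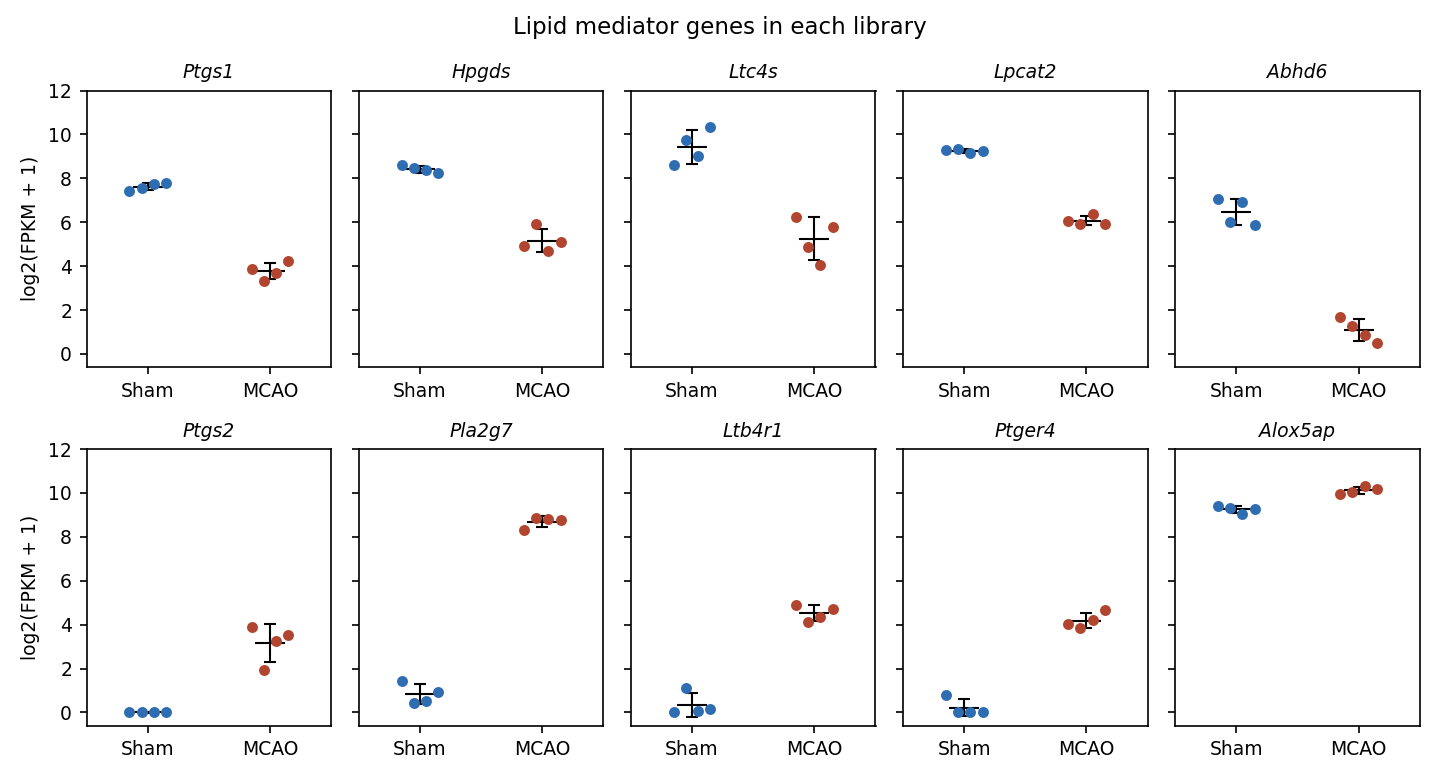
Level of 10 lipid mediator genes in 4 Sham (blue) and 4 MCAO (red) libraries as log2(FPKM + 1), 1 point per library with the mean and SD as bars. In the upper row (Ptgs1, Hpgds, Ltc4s, Lpcat2, Abhd6) every Sham point lies above every MCAO point, and in the lower row (Ptgs2, Pla2g7, Ltb4r1, Ptger4, Alox5ap) every MCAO point lies above every Sham point.

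Sphingolipid genes had no common direction: of 36 tested, 9 rose, 7 fell and 20 did not pass. The 25% called higher lay near the 24.5% over all tested genes. The median of 0.04 became -0.24 with quantile normalization. Smpdl3a, of a lysosomal phosphodiesterase related to acid sphingomyelinase, rose from 10.8, 13.1, 5.98 and 11.5 FPKM to 183, 263, 289 and 277 FPKM (4.51 ± 0.26, adjusted p = 3.5e-11). S1pr2, of a sphingosine-1-phosphate receptor, and Sgpl1, of the lyase that degrades this lipid, rose (3.21 ± 0.53 and 1.57 ± 0.25), and Spns2, of its exporter, fell (-2.34 ± 0.43).

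In central metabolism, 8 of 14 tested pentose phosphate pathway and NADPH genes rose, 0 fell and 6 did not pass (median 1.01). No member was below 1 FPKM in all Sham libraries. The pathway makes NADPH and ribose, and the list also holds other NADPH genes, such as Idh1. Pgd, of 6-phosphogluconate dehydrogenase, was at 15.8, 27.6, 22.2 and 39.5 FPKM in Sham and 139, 129.6, 163 and 154 FPKM in MCAO (2.50 ± 0.25, adjusted p = 1.24e-07). Taldo1, of transaldolase, was at 80.2, 134, 88.4 and 105 FPKM and 426, 421, 508 and 403 FPKM (2.12 ± 0.19, adjusted p = 2.6e-08). Tkt, of transketolase, and Idh1, of the cytosolic NADP-dependent isocitrate dehydrogenase, rose by 2.68 ± 0.37 and 1.91 ± 0.29. For all 4 genes every MCAO library was above every Sham library.

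Tricarboxylic acid cycle and related genes counted 14 up, 4 down and 14 not passed of 32 tested (median 0.67). The aminotransferase genes Got1 and Got2 and Cs, of citrate synthase, rose (2.69 ± 0.33, 3.17 ± 0.50 and 1.73 ± 0.30). Idh3g, of a subunit of the NAD-dependent isocitrate dehydrogenase, fell from 242, 212, 156 and 301 FPKM to 66.8, 83.4, 78.6 and 22.5 FPKM (-1.96 ± 0.36, adjusted p = 0.000213). Of 37 tested fatty acid oxidation and peroxisome genes, 10 rose, 3 fell and 24 did not pass (median 0.54). The share called higher was 27% against 24.5% over all tested genes, and the count was 6 with quantile normalization and 4 with median-ratio scaling. Cpt1a, of the enzyme that admits fatty acids to mitochondria, rose from 9.96, 9.12, 4.47 and 11.4 FPKM to 47.3, 40.3, 61.5 and 55.8 FPKM (2.47 ± 0.31), as did Acaa2, of a mitochondrial thiolase, and Pex19, of a peroxisome import factor (2.26 ± 0.38 and 1.39 ± 0.31). Abcd2, of a peroxisomal transporter of very long chain fatty acids, fell from 38.9, 15.8, 27.6 and 22.9 FPKM to 6.81, 2.23, 3.4 and 3.99 FPKM (-2.42 ± 0.45).

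Serine, folate and nucleotide genes counted 17 up, 3 down and 24 not passed of 44 tested (median 0.66). Aprt, of an adenine salvage enzyme, was at 6.76, 37.5, 37.4 and 82.4 FPKM in Sham and 526, 643, 651 and 666 FPKM in MCAO (4.31 ± 0.45, adjusted p = 2.5e-07). Nme2, of a nucleoside diphosphate kinase, Adssl1, of an enzyme of the purine nucleotide cycle, and Uck2, of a uridine-cytidine kinase, rose by 2.34 ± 0.22, 3.79 ± 0.34 and 4.12 ± 0.39. Phgdh, of the first enzyme of serine synthesis, fell (-2.43 ± 0.66, adjusted p = 0.00685) with overlap, since MCAO replicate 1 was at 24.2 FPKM, and without MCAO replicates 3 and 4 it did not pass (-1.34, adjusted p = 0.152).

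NAD and tryptophan genes counted 8 up (5 with quantile normalization or median-ratio scaling), 3 down and 15 not passed of 26 tested (median 0.62). Called higher were 30.8%, against 24.5% over all tested genes, and 5 members were below 1 FPKM in all Sham libraries. Cd38 and Bst1, of ectoenzymes that consume NAD, were at 0.12, 0.03, 0.31 and 0.24 and 0.05, 0.02, 0.03 and 0.1 FPKM in Sham and at 74.5, 107, 146 and 139.8 and 18.5, 40.7, 53.3 and 78.7 FPKM in MCAO (6.61 ± 0.27 and 5.37 ± 0.35). Nampt, of the rate-limiting enzyme of NAD salvage, rose from 20.5, 21, 21.9 and 8.8 FPKM to 57.4, 73.2, 76.9 and 56.6 FPKM (1.88 ± 0.28), while Nmnat1, of a nuclear NAD synthesis enzyme, fell with overlap (-1.50 ± 0.45, adjusted p = 0.012). The call of Nmnat1 was lost without Sham replicate 3 (adjusted p = 0.0507), with the replicate block (0.0546) and without MCAO replicates 3 and 4 (0.0975). Kynu, of kynureninase, was listed at 0 in Sham and at 1.66, 1.86, 3.5 and 2.1 FPKM in MCAO. Its call was lost without MCAO replicates 3 and 4 (1.46, adjusted p = 0.0532).

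Amino acid and monocarboxylate transporters counted 12 up, 3 down and 11 not passed of 26 tested (median 0.67). Slc1a3, of the glutamate transporter GLAST, was at 62.5, 56.9, 107 and 78 FPKM in Sham and 0.71, 0.03, 0.61 and 0.27 FPKM in MCAO (-5.76 ± 0.35, adjusted p = 7.29e-11). Slc1a3 is also on the astrocyte marker list, whose sum was 57.8 to 107 FPKM in Sham and 5.15 to 14.7 FPKM in MCAO; Slc1a3 made up nearly all of the Sham sum, Aldoc was at 0 in Sham, and the part of astrocytes was not tested. Slc3a2, of the shared heavy chain of amino acid transporters, Slc43a2, of a neutral amino acid transporter, and Slc6a6, of the taurine transporter, rose (1.72 ± 0.23, 2.77 ± 0.33 and 2.59 ± 0.29).

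Of 43 tested ion channel genes, 14 rose, 7 fell and 22 did not pass (median 0.58). These are 32.6% higher and 16.3% lower, against 24.5% and 14.8% over all tested genes. Kcnn4, of a calcium-activated potassium channel, rose from 0, 1.59, 0.08 and 2.41 FPKM to 60.8, 60.7, 46.9 and 31.9 FPKM (4.82 ± 0.44, adjusted p = 4.71e-08). Kcnd1, of a voltage-gated potassium channel, fell from 12.4, 8.59, 7.4 and 12.3 FPKM to 0.02, 2.2, 0.04 and 0 FPKM (-3.01 ± 0.38, adjusted p = 3.08e-06). These 2 potassium channel genes moved in opposite directions, and Kcnd1 was also named as the largest change against the list's main direction. Clic4 and Clcn7, of intracellular chloride transport proteins, rose (4.31 ± 0.42 and 2.26 ± 0.31).

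Metal handling genes counted 9 up, 3 down and 19 not passed of 31 tested (median 0.35), with 29% called higher against 24.5% over all tested genes. Mt1, of a metallothionein, was at 354, 503, 401 and 572 FPKM in Sham and 1508, 1707, 2041 and 2061 FPKM in MCAO (2.01 ± 0.19, adjusted p = 7.84e-08); its neighbour Mt2 was at 5.48, 7.77, 1.96 and 14.8 FPKM and 152, 128, 155 and 209 FPKM, and the similarity of the 2 genes leaves the split of reads uncertain. The zinc importer genes Slc39a14 and Slc39a7 rose (3.65 ± 0.40 and 1.52 ± 0.28) and Slc39a10 fell with overlap (-1.53 ± 0.49, adjusted p = 0.0175). The call of Slc39a10 was lost without Sham replicate 1 (adjusted p = 0.0629), MCAO replicate 1 (0.0537) or MCAO replicate 3 (0.0514). It was also lost with the replicate block (0.0646) and with length and GC trends removed (0.0757).

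Selenoprotein and selenium genes counted 9 up, 2 down and 14 not passed of 25 tested (median 0.67). Msrb1, of a methionine sulfoxide reductase that contains selenocysteine, was at 0.16, 4.29, 2.08 and 5.34 FPKM in Sham and 255, 339, 469.9 and 386 FPKM in MCAO (6.74 ± 0.44, adjusted p = 2.99e-10). Selenow, of a small selenoprotein, Sephs2, of selenophosphate synthesis, and Gpx3, of a secreted glutathione peroxidase, rose by 2.79 ± 0.26, 2.46 ± 0.26 and 4.73 ± 0.32. Selenop, of the selenium carrier, fell from 3063, 2549, 2658 and 1791 FPKM to 549, 764, 1031 and 660.0 FPKM (-1.75 ± 0.28), with no overlap.

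Mitochondrial dynamics and carrier genes counted 13 up, 7 down and 17 not passed of 37 tested; their median of 0.23 became -0.01 with quantile normalization. Mcub, of a subunit that restrains mitochondrial calcium uptake, rose from 0, 0.05, 0.06 and 0 FPKM to 42, 64, 44.4 and 54.8 FPKM (5.65 ± 0.30, adjusted p = 8.9e-12). Ucp2, of an uncoupling protein, Slc25a24, of an ATP-magnesium carrier, and Slc25a3, of the phosphate carrier, rose by 2.80 ± 0.36, 4.09 ± 0.33 and 1.67 ± 0.24. Oma1, of an inner membrane protease, fell (-2.59 ± 0.39).

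Of 25 tested coagulation and fibrinolysis genes, 10 rose, 7 fell and 8 did not pass (median 0.48). F7 and F10, of clotting factors that act in sequence, were at most 0.15 FPKM in Sham and at 22.5, 20.4, 20.8 and 11.1 and 41.8, 32.5, 11.3 and 18.6 FPKM in MCAO (4.23 ± 0.36 and 4.50 ± 0.37). Pdpn, of podoplanin, a ligand of a platelet receptor, was at 0.11, 0.08, 0.03 and 0.13 FPKM and 99.6, 63.1, 64.2 and 74.3 FPKM (6.11 ± 0.25, adjusted p = 1.54e-13). Serpine2, of an inhibitor of thrombin, went down, from 204, 324, 317 and 304 FPKM to 62.9, 3.85, 8.98 and 1.87 FPKM (-4.87 ± 0.83), and MCAO replicate 1 stood above the other MCAO libraries.

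Of 31 tested extracellular matrix genes, 14 rose, 6 fell and 11 did not pass (median 1.20), and 11 were below 1 FPKM in all Sham libraries. Tgfbi, of a TGF-beta induced matrix protein, was at 3.5, 8.98, 15.6 and 21 FPKM in Sham and 1535, 1350.4, 1233 and 1523 FPKM in MCAO (6.96 ± 0.35, adjusted p = 3.87e-12). Emilin2, of an elastic fibre glycoprotein, and Cd44, of the hyaluronan receptor, reached 152, 125, 107 and 101 and 190.2, 177, 147 and 149 FPKM from near 0. Olfml3, of a secreted matrix scaffold protein that is also a known microglia gene, fell (-4.54 ± 0.31).

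Selectin and adhesion genes were divided: of 25 tested, 9 rose, 8 fell and 8 did not pass (median -0.29). Selplg, of the P-selectin ligand, was at 720.4, 1568, 1131 and 1925 FPKM in Sham and 112, 146, 97.5 and 74.6 FPKM in MCAO (-3.57 ± 0.28, adjusted p = 5.4e-09). Cd164, of a sialomucin, and Tjp1, of a tight junction scaffold, fell (-3.48 ± 0.28 and -4.44 ± 0.40). Cd93 and Emb, of a C-type lectin-like adhesion protein and of embigin, were near 0 in Sham and at 90.2, 88.8, 107 and 115 and 87.5, 126, 128 and 113 FPKM in MCAO.

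Osteoclast and macrophage fusion genes counted 11 up (6 with median-ratio scaling), 3 down and 7 not passed of 21 tested (median 0.91), with 5 below 1 FPKM in all Sham libraries. Acp5, of tartrate-resistant acid phosphatase, was at 0.1, 0.11, 0.08 and 0.26 FPKM in Sham and 78.8, 104, 94.6 and 92.3 FPKM in MCAO (6.35 ± 0.23, adjusted p = 3.36e-14). Adam8 and Adam9, of membrane proteases, and Sh3pxd2b, of a podosome adaptor, rose by 6.45 ± 0.29, 2.44 ± 0.30 and 3.38 ± 0.42. Batf3, of a transcription factor of dendritic cell development, fell from 75.3, 42.7, 61.2 and 69.1 FPKM to 9.43, 5.37, 0.57 and 0.42 FPKM (-4.15 ± 0.62).

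Inside the cell, MAPK phosphatases and Ras feedback genes were evenly divided: of 32 tested, 9 rose, 9 fell and 14 did not pass, and the median of -0.43 became 0.04 when trends with gene length and GC content were removed. Dusp6, of a phosphatase that inactivates ERK, was at 549, 466, 453 and 379 FPKM in Sham and 78.3, 59.8, 85.4 and 92.2 FPKM in MCAO (-2.54 ± 0.25, adjusted p = 1.01e-07). Spry1, of an inhibitor of receptor tyrosine kinase signals, fell from 18.1, 26.1, 12 and 15.8 FPKM to 0.42, 0.29, 0.05 and 0.64 FPKM (-3.78 ± 0.35). Rasgrp3, of a Ras activator, fell from 103, 72.6, 79.9 and 79.6 FPKM to 3.32, 3.27, 0.94 and 0.42 FPKM and Rasgrp2, of a Rap activator, rose from 0.33, 0.05, 1.7 and 0.33 FPKM to 29.6, 14.5, 86.7 and 65.7 FPKM, highest in MCAO replicates 3 and 4.

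Of 19 tested clock genes, 5 rose, 5 fell and 9 did not pass (median 0.54). In each direction 26.3% were called, against 24.5% higher and 14.8% lower over all tested genes. Bhlhe40 and Bhlhe41 encode related transcriptional repressors of the clock. Bhlhe40 was at 0.06, 0, 0.05 and 0.05 FPKM in Sham and 76.4, 83.6, 53.6 and 59.5 FPKM in MCAO (6.04 ± 0.25, adjusted p = 1.77e-13), and Bhlhe41 at 94.6, 101, 122 and 54.6 FPKM and 19.8, 14, 17.6 and 14.7 FPKM (-2.38 ± 0.29, adjusted p = 1.77e-06). Nfil3, of a basic leucine zipper repressor, rose (4.91 ± 0.43), as did the low-level Nr1d1, of REV-ERB alpha (1.86 ± 0.33). Among 28 tested nuclear receptor and glucocorticoid response genes, 12 rose, 2 fell and 14 did not pass (median 0.87). Nr1h3, of the sterol receptor LXR alpha, rose from 0, 0, 0.82 and 0 FPKM to 36.7, 20.1, 19.1 and 17.4 FPKM (4.33 ± 0.38, adjusted p = 2.45e-08), Klf9 and Rara rose by 3.26 ± 0.39 and 2.44 ± 0.41, and Sult1a1, of a sulfotransferase, fell (-5.05 ± 0.64).

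Of 58 tested chromatin genes, 15 rose, 4 fell and 39 did not pass (median 0.28), a share of 25.9% called higher against 24.5% over all tested genes. Hdac11 fell from 7.78, 3.87, 7.54 and 7.43 FPKM to 0, 0, 0.04 and 0 FPKM (-2.88 ± 0.33, adjusted p = 1.07e-06), while the deacetylase genes Hdac4 and Hdac7 rose (2.37 ± 0.42 and 2.46 ± 0.42). Dnmt1, of the maintenance DNA methyltransferase, rose by 2.78 ± 0.42. Of 36 tested Notch and Wnt genes, 13 rose, 4 fell and 19 did not pass (median 0.70). Psen2, of a gamma-secretase subunit, rose from 11.7, 5.72, 11 and 10.2 FPKM to 65.5, 106, 104 and 115 FPKM (3.22 ± 0.27, adjusted p = 1.23e-08), as did Jag1, of a Notch ligand, and Rbpj, of the Notch effector (2.84 ± 0.35 and 1.98 ± 0.29). Maml2, of a Notch coactivator, and Ryk, of a Wnt receptor, fell (-1.94 ± 0.34 and -1.95 ± 0.43).

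Protein synthesis and quality control were covered by 3 lists. Of 23 tested aminoacyl-tRNA synthetase genes, 5 rose, 0 fell and 18 did not pass (median 0.49), with Eprs at 1.34 ± 0.31, Gars at 2.12 ± 0.60, Kars at 1.37 ± 0.41 and Qars at 1.04 ± 0.34; the groups overlapped for Gars, Kars and Qars. The share called higher was 21.7%, below the 24.5% over all tested genes, and the count was 3 with quantile normalization and with median-ratio scaling. The call of Kars was lost without MCAO replicates 3 and 4 (1.40, adjusted p = 0.0555). The call of Qars was lost without Sham replicate 1 (adjusted p = 0.0834), MCAO replicate 2 (0.0521) or MCAO replicate 3 (0.058), and with quantile normalization (0.0619). It was also lost with median-ratio scaling (0.0667), in the fit of the 8 libraries (0.065) and with the replicate block (0.091). Of 40 tested cytosolic chaperone genes, 9 rose, 4 fell and 27 did not pass (median 0.29), with 22.5% called higher. Dnajb1 and Dnajb4, of HSP70 co-chaperones, fell (-1.97 ± 0.37 and -3.41 ± 0.40), and Bag1, of another co-chaperone, and Cct2, of a chaperonin subunit, rose (2.21 ± 0.37 and 1.15 ± 0.25). Autophagy genes counted 11 up, 4 down and 30 not passed of 45 tested (median 0.41), with 24.4% called higher: Sqstm1, of the cargo receptor p62, Gabarap and Atg7 rose (1.68 ± 0.27, 1.04 ± 0.19 and 2.89 ± 0.41) and Atg14 fell (-2.13 ± 0.45).

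Tubulin and microtubule genes counted 16 up, 4 down and 20 not passed of 40 tested (median 0.67). Tuba1a was at 333, 602, 475 and 618 FPKM in Sham and 55.5, 94.3, 109.9 and 83.7 FPKM in MCAO (-2.55 ± 0.25, adjusted p = 1.23e-07). Tuba1c was at 31.9, 45.5, 43.6 and 47.1 FPKM and 323, 300.3, 338 and 427 FPKM (3.02 ± 0.20, adjusted p = 4.03e-10). These alpha-tubulin genes traded places, although their similar coding sequences can share reads. Tubb6, of a beta-tubulin, rose by 4.05 ± 0.24, and Tppp, of a tubulin polymerization promoting protein, fell (-3.56 ± 0.32).

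The pairs Ptgs1 and Ptgs2, Bhlhe41 and Bhlhe40, Tuba1a and Tuba1c, Rasgrp3 and Rasgrp2, Spry1 and Spry2, and Tppp and Tppp3 were set side by side after their values were seen, because in each the first gene fell and the second rose. Spry2 was at 0, 0, 0 and 0.03 FPKM in Sham and 2.36, 3.21, 2.72 and 9.15 FPKM in MCAO, and Tppp3 at 0, 0, 0.06 and 0.49 FPKM and 21.1, 9.64, 17.4 and 30.4 FPKM. For all 12 genes the Sham and MCAO values did not overlap. The difference between the partners was not tested beyond each gene's own comparison.

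**Figure D4:**
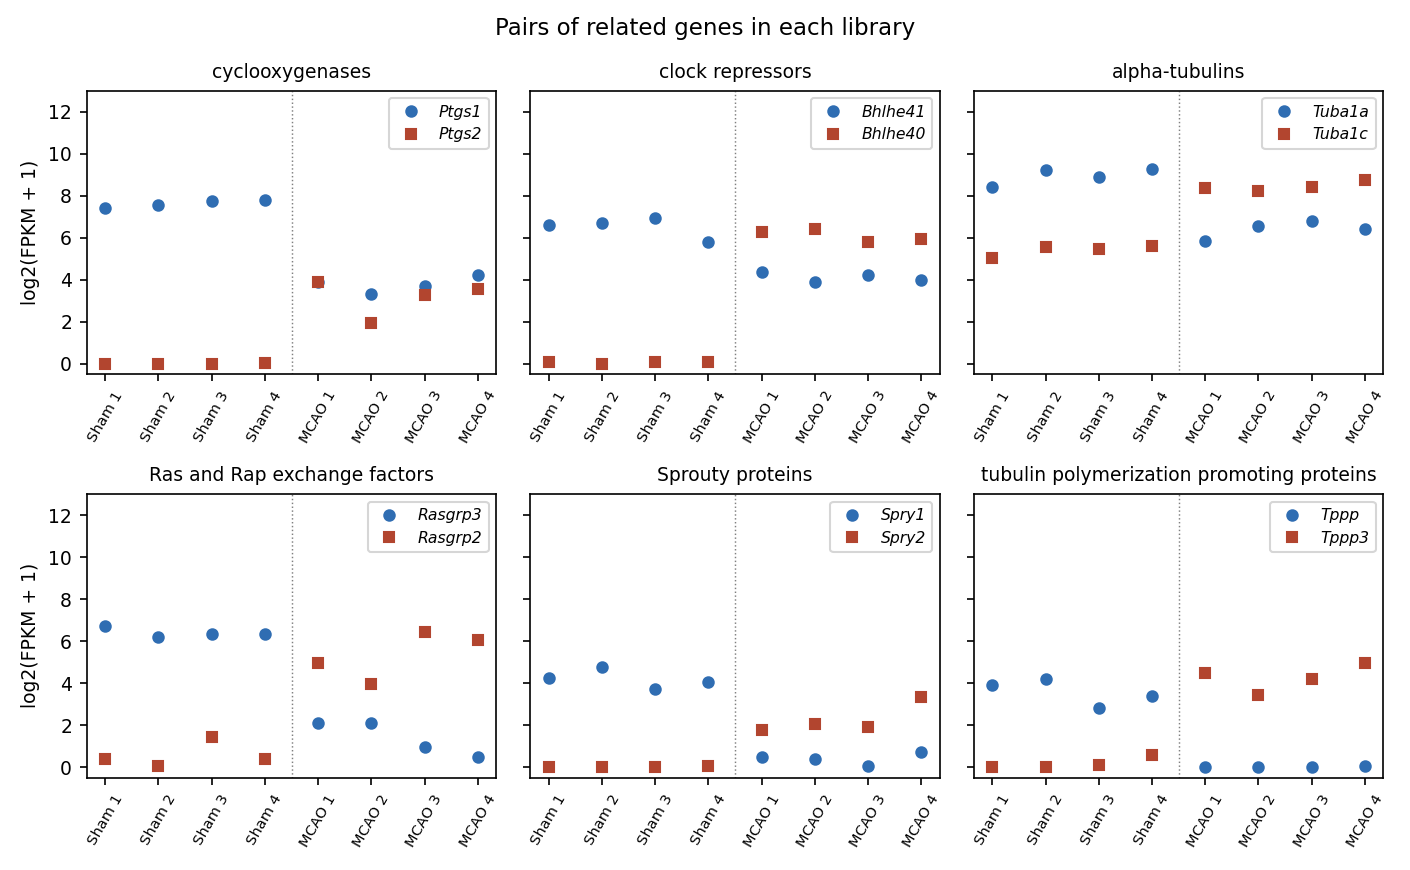
Level of both genes of 6 related pairs in each of the 8 libraries as log2(FPKM + 1), the gene that fell as blue circles and the one that rose as red squares, with Sham libraries left of the dotted line and MCAO libraries right of it. In each panel the squares lie higher right of the line than left of it and the circles lower; the squares pass above the circles in MCAO except in the panel of the cyclooxygenases, where Ptgs1 stays above Ptgs2 in 3 of 4 libraries.

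Some genes were at close levels in both groups. For 23 tested genes the 95% interval of the fold change lay within -0.5 to 0.5. The most abundant were Ppia, of cyclophilin A, at 3932 ± 878 FPKM in Sham and 3927 ± 150.1 FPKM in MCAO (SD, n = 4), with a fold change of 0.03 ± 0.19; Ptma, of prothymosin alpha (-0.01 ± 0.19); and Ctsl, of the lysosomal protease cathepsin L (0.04 ± 0.21). Vamp8, of vesicle fusion, Dad1, of protein glycosylation, Psma3, of the proteasome, Atp5c1, of ATP synthase, and D8Ertd738e lay between -0.04 and 0.08. Scaling matters here: with quantile normalization Ptma and Vamp8 were called lower (-0.50, adjusted p = 0.0288, and -0.49, adjusted p = 0.0331).

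In MCAO the widest spreads among well expressed genes were those of S100a9, Wfdc21, Hikeshi, Rtp4, Ly6a and Pbdc1. S100a9, of a neutrophil and monocyte calcium-binding protein, was at 275, 414, 1290.3 and 2331 FPKM, and Wfdc21, of a secreted protein abundant in neutrophils, at 9.38, 14.8, 78.4 and 159 FPKM, listed at 0 in Sham. Both ranked the MCAO libraries as the neutrophil marker sum did, at 1732, 2371, 5749 and 9987 FPKM; S100a9 is itself on that list, so it shares in the sum, and the part of neutrophils was not tested. Hikeshi, of a heat shock import factor, ranged from 8.03 to 74.6 FPKM in MCAO, and Pbdc1 from 12.7 to 124 FPKM. Neither passed (-0.44 ± 0.48 and 1.51 ± 0.61). Pbdc1 did without MCAO replicate 1 (2.15, adjusted p = 0.00511) or Sham replicate 2 (1.89, adjusted p = 0.0267). It also did with library quality weights (0.0339) or with length and GC trends removed (0.00895). Hikeshi passed without MCAO replicates 3 and 4 (-1.45, adjusted p = 0.0226). Rtp4 and Ly6a did not pass either (-1.03 ± 0.75 and 0.41 ± 0.62).

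In Sham the widest spreads were those of Cxcl10, Ifi27l2a, Ifitm3, Dctpp1, Txn2 and Pnkd. The interferon-induced genes among them were highest in replicate 3: Ifitm3 was at 34, 58.2, 467 and 78.9 FPKM, Ifi27l2a at 217, 131, 1479 and 44 FPKM and Cxcl10, of an interferon-induced chemokine, at 32.1, 66.1, 252 and 26.4 FPKM. Rtp4 and Ly6a, interferon-induced genes named for their spread in MCAO, were also highest in Sham replicate 3, at 321 and 159 FPKM. Ifitm3 rose in MCAO (3.88 ± 0.51), Cxcl10 fell (-3.72 ± 1.02, adjusted p = 0.00694), and Ifi27l2a did not pass (1.77 ± 0.70, adjusted p = 0.0507). Without Sham replicate 3, Ifi27l2a passed (2.71, adjusted p = 0.000396). It also passed with totals scaled equal (0.044), a minimum of 5 FPKM (0.0448), the filter on the 8 libraries (0.0474) and the replicate block (0.0308). Cxcl10 did not pass without MCAO replicates 3 and 4 (-1.85, adjusted p = 0.196) or with library quality weights (adjusted p = 0.0508). Dctpp1, of a nucleotide pyrophosphatase, Txn2, of mitochondrial thioredoxin, and Pnkd shared another feature: Sham replicate 1 was the lowest for each, at 6.48, 4.46 and 14.2 FPKM. Pnkd fell (-1.36 ± 0.49, adjusted p = 0.0315), but not without Sham replicate 2, 3 or 4 (adjusted p = 0.0774, 0.123 and 0.0895) or MCAO replicate 1 or 3 (0.0622 and 0.0742). Its call was also lost with no filter (0.0642), in the fit of the 8 libraries (0.1) and with the replicate block (0.0724). The fold changes of Dctpp1 and Txn2 were 0.41 ± 0.57 and 1.34 ± 0.57, which did not pass. Without Sham replicate 2 or 4, Txn2 passed (adjusted p = 0.0338 and 0.0198).

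**Figure D5:**
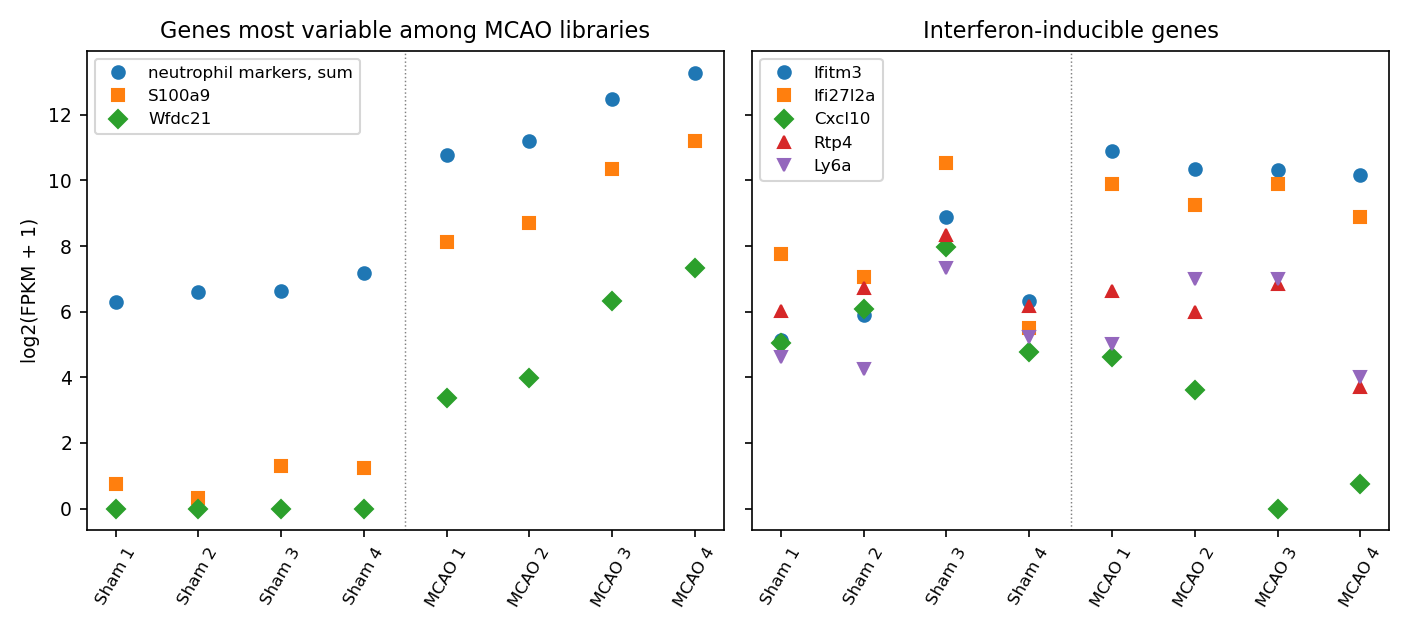
Level in each of the 8 libraries as log2(FPKM + 1) of the summed neutrophil markers, S100a9 and Wfdc21 (left) and of Ifitm3, Ifi27l2a, Cxcl10, Rtp4 and Ly6a (right), with Sham left of the dotted line. On the left all 3 series rank the MCAO libraries in the same order, and on the right Sham replicate 3 is the highest Sham library for all 5 genes.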

How the data were processed

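Bulk RNA sequencing measured 4 Sham and 4 MCAO libraries of sorted cells, made from amplified cDNA by a transposon-based method per the labels' protocols. The authors deposited a table of FPKM values of 13982 genes for 16 libraries. HISAT2, Bowtie2 and RSEM 1.3.1 were named per the submitters' processing notes, and their settings are not stated there. The deposited FPKM values hold no counts, so the depth and its precision are unknown.

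Values were used as log2(FPKM + 1), and the 10846 genes that reached 1 FPKM in 4 or more of the 16 libraries were tested (3136 did not). limma 3.58.1 in R 4.3.3 was fitted over the 4 groups of the study with trend and robust settings, MCAO minus Sham, 2-sided, with Benjamini-Hochberg adjustment over all tested genes and a threshold of 0.05. The procedure was tested on simulated data. Genes were named by rule: the 15 largest non-overlapping changes in each direction in the upper 50% of mean level; in each of 37 lists the 4 members with the smallest p and the largest change against the list's main direction; the 8 most abundant genes absent from one group; the 8 most abundant steady genes; and the 6 most variable in each group. The best known genes were left out of the largest changes and of the genes absent from one group. Members and lists were chosen with earlier results of these data known. A list of noncoding RNA host genes was not analysed here. Promoter sequences come from RefSeq, and 11043 genes of the table had one.

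The 21 alternatives covered scaling, pseudocount, filter, model, gene length and GC content, leaving out each library, and leaving out MCAO replicates 3 and 4 together, the last chosen after seeing the data.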

Additional observations from a re-analysis of the deposited data

Results flagged for a closer look

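For 32 genes named in the text, 1 library of a group lay far from the other 3, its gap to the nearest taking more of the group's range on the log2(FPKM + 1) scale than Dixon's 95% limit. A total of 367 groups were looked at and 8.72% were marked. In unselected groups chance alone would mark about 1 in 20. Many of these genes were named by their change, p or spread and some values lie near 0, so the 2 shares cannot be compared. Sham replicate 2 was above the other Sham libraries for Gdf15 at 4.17 FPKM (the others 0.04 to 0.13), Ltb4r1 at 1.2 FPKM (the others 0 to 0.13) and Uck2 at 1.71 FPKM (the others 0 to 0.04). Sham replicate 3 was above the other Sham libraries for Clec4n at 3.71 FPKM (the others 0.06 to 0.11) and Rgs2 at 1792 FPKM (the others 1407 to 1417). Sham replicate 4 was above the other Sham libraries for Cd300lf at 1.17 FPKM (the others 0.05 to 0.15), Cd44 at 1.53 FPKM (the others 0.09 to 0.12), Kars at 28.3 FPKM (the others 7.59 to 9.44) and Lilr4b at 2.84 FPKM (the others 0.19 to 0.36). Sham replicate 1 was below the other Sham libraries for Anxa3 at 344 FPKM (the others 421 to 434), Crlf2 at 0.41 FPKM (the others 2.57 to 3.12), Rgs10 at 2225 FPKM (the others 2360.1 to 2377), Serpine2 at 204 FPKM (the others 304 to 324) and Tnfsf13 at 0.47 FPKM (the others 8.33 to 10.4). Sham replicate 2 was below the other Sham libraries for Hdac11 at 3.87 FPKM (the others 7.43 to 7.78) and Rgmb at 21.3 FPKM (the others 43.1 to 45.9). Sham replicate 3 was below the other Sham libraries for Gpr65 at 1.77 FPKM (the others 6.37 to 7.99). Sham replicate 4 was below the other Sham libraries for Nampt at 8.8 FPKM (the others 20.5 to 21.9) and Tnfrsf17 at 41.9 FPKM (the others 116 to 141). MCAO replicate 1 was above the other MCAO libraries for Capn3 at 9.46 FPKM (the others 0 to 0.09), Sgce at 7.56 FPKM (the others 0 to 0.3), Sirpb1b at 73.5 FPKM (the others 46.5 to 48.6), Thrsp at 1.76 FPKM (the others 0 to 0.06) and Tmem100 at 2.29 FPKM (the others 0 to 0.08). MCAO replicate 2 was above the other MCAO libraries for Kcnd1 at 2.2 FPKM (the others 0 to 0.04). MCAO replicate 1 was below the other MCAO libraries for Aprt at 526 FPKM (the others 643 to 666), Gdf3 at 10.8 FPKM (the others 24.5 to 27.9), Psen2 at 65.5 FPKM (the others 104 to 115) and Slc25a3 at 453 FPKM (the others 514 to 525). MCAO replicate 3 was below the other MCAO libraries for Nfil3 at 28.7 FPKM (the others 67.2 to 76.4). MCAO replicate 4 was below the other MCAO libraries for F7 at 11.1 FPKM (the others 20.4 to 22.5) and Idh3g at 22.5 FPKM (the others 66.8 to 83.4).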

How the results depend on the processing

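Of 199 called genes that the text names, 190 were tested under all 21 alternatives and 182 of these kept their call in each; the other 9 were not tested with a minimum of 5 FPKM. Of the 199, 190 kept their call in every alternative in which they were tested and 0 reversed direction. Leaving out each library in turn gave 2353 to 2723 genes higher and 1400 to 1528 lower. Same-numbered libraries did not vary together (correlations of -0.026, 0.0346, 0.00166 and -0.031), which cannot tell whether they were handled together. The fit of 8 libraries with a replicate block called 2059 genes higher and 1228 lower. Without MCAO replicates 3 and 4, which had the highest neutrophil marker sums, 2075 were higher and 1139 lower. Vamp8 was called lower with quantile normalization (-0.49). Medians of some lists changed sign, and the cause was not tested. The median over all tested genes moved as well, from 0.25 to 0.00 with quantile normalization and to 0.06 with median-ratio scaling. For eicosanoid genes the median became 0.08 with no filter, ranged from -0.46 (without Sham replicate 1) to 0.03 (without MCAO replicate 3) when 1 library was left out, and was 0.02 without MCAO replicates 3 and 4. For sphingolipid genes it became -0.24 with quantile normalization, -0.14 with median-ratio scaling, ranged from -0.09 (without Sham replicate 1) to 0.28 (without Sham replicate 4), with -0.05 without Sham replicate 3 and -0.07 without MCAO replicate 2, and was -0.13 without MCAO replicates 3 and 4. For axon guidance genes it became 0.51 with a minimum of 5 FPKM, 0.16 with the filter on the 8 libraries and 0.12 without MCAO replicates 3 and 4. For mitochondrial genes it became -0.01 with quantile normalization and with median-ratio scaling, for adhesion genes 0.01 with no filter and between -0.51 (without MCAO replicate 1) and 0.02 (without Sham replicate 1), and for MAPK genes 0.04 with length and GC trends removed.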
